A study of Caenorhabditis elegans with 4 samples.

Results

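The regions described here are the weak DPY-28 peaks on the X chromosome of Caenorhabditis elegans, chosen by their score: the X peaks of the whole-series peak list whose score was below 10. There were 5950 of them, among 9098 X peaks and 10867 peaks in all. The other 3148 X peaks, which scored 10 or more, are called stronger peaks below. The samples were wild-type N2 embryos of mixed stages, labelled with a temperature of 20 °C and holding both males and hermaphrodites. DPY-28 was mapped by chromatin immunoprecipitation and sequencing (ChIP-seq), with an affinity-purified rabbit polyclonal antibody, in 2 ChIP samples beside 2 input samples. All samples had the same genotype and stage, so no condition was compared, and whole embryos mix cell types and both sexes. Each ChIP sample had its own peak list, with 3274 peaks in replicate 1 (1889 on X) and 5244 in replicate 2 (4743 on X).

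DPY-28 is a condensin subunit. It works in condensin I, a complex used by every chromosome in cell division, and in the dosage compensation complex, whose condensin binds both X chromosomes of hermaphrodites and lowers their transcription. The complex is recruited at a limited number of X sites, known as rex sites, and is then found at many further places along X, often at promoters of active genes, where binding depends on connection to the rest of X. Which of the peaks below are recruitment sites was not analysed here, and no gene, promoter or sequence was assigned to a peak.

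Weak peaks made up most X peaks by number and less of X by length. They were 65.4% of the X peaks (exact 95% interval 64.4 to 66.4%) and 46.8% of the X length covered by peaks, 1631 kb against 1855 kb for the stronger peaks. Weak peaks lay on 9.20% of X and stronger peaks on 10.5%. Among the autosomes the share of peaks scoring below 10 was 72.1% on V, 73.1% on II, 75.9% on III, 76.3% on I and 77.9% on IV. The X share was thus below that of each autosome, although X held 336 weak peaks per Mb and the autosomes together held 16.0 per Mb. Peaks scoring below 10 were 20.9 times as dense on X as on autosomes, and peaks scoring 10 or more were 33.4 times as dense. The weak peaks therefore were denser on X too, by a smaller ratio than the stronger peaks. This difference was given no test, because X is 1 chromosome and neighbouring peaks are not independent.

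The scores that chose the weak peaks ran from 1.30 to 9.99, with a median of 4.94 and a middle range (25th to 75th percentile) of 3.55 to 6.76. They took 731 distinct values, and the most frequent, 4.62, was shared by 91 peaks. The files do not name the scale. The lowest score equals the negative log10 of 0.05 after rounding. Autosomal peaks scoring below 10, chosen by the same limit, had a median score of 5.06, close to that of the weak X peaks. Just inside the limit, 8 peaks scored 9.99, and the first 5 by position were X 432468 to 432856, X 5029867 to 5030168, X 5695588 to 5695902, X 6236081 to 6236261, and X 9502700 to 9502919, in WS220 coordinates. Just outside it, X 4128463 to 4128965 scored 10.00, as did X 5263283 to 5263581. X 4516842 to 4517016 scored 10.01, X 4884491 to 4885140 scored 10.04, and X 5482830 to 5483940 had the same 10.04. The 5 just outside all overlapped a replicate 2 peak, and 3 of the 5 named just inside did. The limit of 10 thus lies within a continuous run of scores.

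Weak peaks were narrow. Their median width was 234 bp (25th to 75th percentile 183 to 322 bp), against 479 bp (359 to 649 bp) for the stronger X peaks and 216 bp for autosomal peaks scoring below 10. The narrowest were 146 bp, a width that 160 weak peaks had. This was also the lowest width of the stronger X peaks and of autosomal peaks scoring below 10. Under 160 bp there were 701 weak peaks and 1 stronger peak, while over 1 kb there were 15 weak and 211 stronger peaks. Within the weak peaks the median width went from 195 bp at scores below 2 to 220 bp at scores from 4 to 5 and 323.5 bp at scores from 9 to 10. The Spearman correlation of score and width across the 5950 weak peaks was 0.38, given as a description because both come from the same peak calls.

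**Figure D1:**
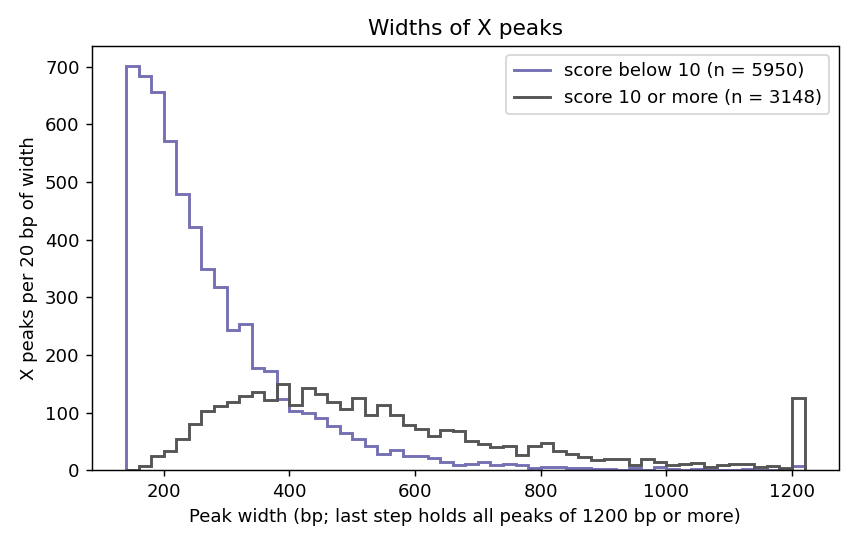
The plot shows the number of X peaks (vertical axis) in steps of 20 bp of peak width (horizontal axis, bp), for peaks scoring below 10 and peaks scoring 10 or more, with all peaks of 1200 bp or more in the last step. Weak peaks pile up at the narrowest widths, near 146 bp, while stronger peaks spread around their median of 479 bp. The lowest width is 146 bp in both classes.

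Of the 5 widest weak peaks, 4 lay inside a wider replicate 2 peak. The widest, X 11440813 to 11443723 (2911 bp, score 7.61), lay 44 bp from a stronger peak and inside the replicate 2 peak X 11440481 to 11443770, which scored 1054. X 1910497 to 1912006 (1510 bp, score 8.09) lay 115 bp from a stronger peak and inside the replicate 2 peak X 1908542 to 1912249, which scored 3100. X 11373878 to 11375347 (1470 bp), X 14385007 to 14386281 (1275 bp) and X 9104874 to 9106144 (1271 bp) scored 7.54, 7.39 and 3.81. They overlapped replicate 2 peaks that scored 639, 201 and 686. Of the 5, X 14385007 to 14386281 was wider than its replicate 2 peak, X 14385031 to 14385681. All 5 lay within 500 bp of a stronger peak, and the widest also overlapped a replicate 1 peak.

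Along X, weak peaks were present in every part of the chromosome. In 35 bins of 500 kb the density averaged 336 ± 36.8 weak peaks per Mb (SD over bins) and ran from 236 to 400 per Mb with a median of 342. The lowest bin was the first, X 1 to 500000, with 118 weak peaks, and the highest was X 10500001 to 11000000, with 200. The SD was 10.96% of the mean for weak peaks and 15.1% for stronger peaks, whose bins ran from 100 to 242 per Mb. Stronger peaks were fewer, with a mean of 178 per Mb over bins, so counting alone gives them a larger relative spread. The level from counting was not computed, so these values do not show that weak peaks were more even along X. For weak peaks the SD was 13.7% of the mean in bins of 250 kb and 8.05% in bins of 1000 kb. With the centre taken as the middle 33.3% of X, the left arm had 341 weak peaks per Mb, the centre 343 and the right arm 323, and the ratio of both arms to the centre was 0.97. For stronger peaks this ratio was 1.11, with 184 per Mb on the arms and 165 in the centre. Both ratios lie close to 1, on opposite sides.

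Bins rich in stronger peaks were not, on the whole, richer or poorer in weak ones. The Spearman correlation of their densities over the 35 bins was 0.08, a description of bins that share 1 list. The share of weak peaks among X peaks ran from 55.4% in the bin X 16000001 to 16500000, which had the highest density of stronger peaks, to 72.7% in the bin X 500001 to 1000000. The first bin was the lowest for both classes, at 236 weak and 100 stronger peaks per Mb.

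**Figure D2:**
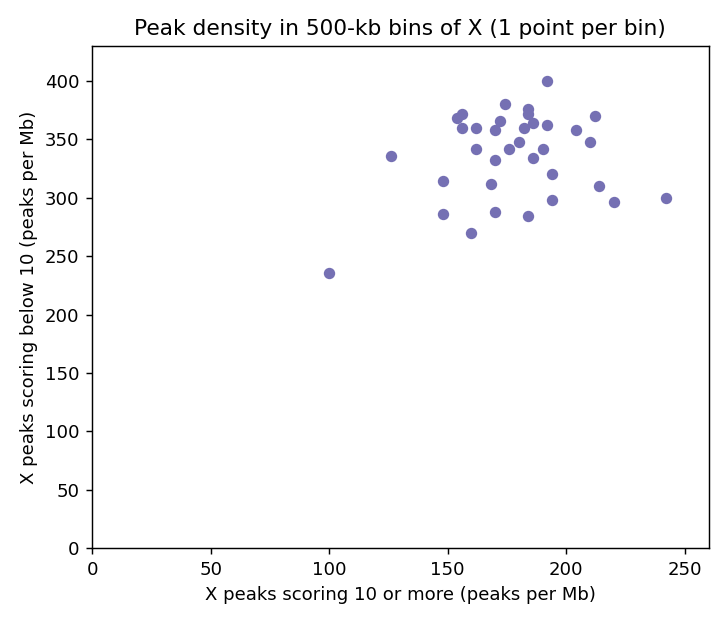
The plot sets the density of X peaks scoring below 10 (vertical axis, peaks per Mb) against that of X peaks scoring 10 or more (horizontal axis, peaks per Mb), with 1 point for each of 35 bins of 500 kb and both axes starting at 0. The points form a cloud without a slope, apart from the first bin of X, which is lowest on both axes at 236 and 100 peaks per Mb.

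Neighbouring weak peaks were a median of 1954 bp apart between midpoints (25th to 75th percentile 996 to 3825 bp, range 206 to 32122 bp). Stronger peaks were a median of 3532 bp apart and all X peaks 1408 bp. From edge to edge, the nearest X peak of any score lay a median of 573 bp from a weak peak and 548 bp from a stronger peak. It lay within 500 bp for 44.9% of the weak peaks and 47.2% of the stronger peaks. No neighbouring X peaks of the list were closer than 43 bp. The nearest X peak was itself weak for 69.1% of the weak peaks, beside a weak share of 65.4% among all X peaks.

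Weak peaks stood singly or in runs between stronger peaks. With weak peaks at 65.4% of X peaks, such runs would arise in a random order too. The level for a random order was not computed, so the values below only describe the list. There were 1935 runs of consecutive weak peaks, of which 695 held 1 peak, 380 held 2, 579 held 3 to 5 and 281 held 6 or more. The median run was 2 peaks and 46.6% of the weak peaks had a weak peak on both sides, while 11.7% had a stronger peak on both sides. The longest run was 26 weak peaks over 43.2 kb, X 6163829 to 6207042, with scores from 1.73 to 9.78 and a median of 4.91. Of its 26 peaks, 2 were found in replicate 1 and 6 in replicate 2, beside 5.82% and 40.1% of all weak peaks. X 6166432 to 6166844, the highest scoring of the run at 9.78, was found in both, with scores of 51.58 in replicate 1 and 163 in replicate 2. The widest distance between neighbouring weak peaks, 32.1 kb, lay between X 8956046 and X 8987928 and held 5 stronger peaks that covered 2.41 kb.

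Of the 3147 gaps that stronger peaks leave on X, 1212 held no weak peak, 695 held 1, 661 held 2 or 3 and 579 held 4 or more. Gaps of up to 1 kb had 235 weak peaks per Mb and 88.7% of them had none. Peaks were at least 146 bp wide and at least 43 bp apart, so the shortest gaps have little or no room for one. The share of empty gaps thus depends on gap length itself. Gaps of over 5 and up to 10 kb had 407.5 per Mb, and 6.70% of them had none. The 101 gaps of over 20 kb each held at least 1 weak peak and had 340 per Mb.

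The next comparison asked whether weak peaks sat beside stronger ones. From edge to edge, the nearest stronger peak was a median of 1941 bp away (25th to 75th percentile 801 to 4012 bp, farthest 24058 bp). It lay within 500 bp for 16.8% of the weak peaks (exact 95% interval 15.8 to 17.7%), within 2 kb for 50.9% and within 10 kb for 96.2%. The weak peaks were then moved along X as a block, by 1000 evenly spaced circular shifts, which keep their own spacing and give the level for other places on X without a test. A called weak peak cannot lie on a stronger peak, whereas 15.2% of the shifted ones did, so those were left out. The median distance at the shifts was then 1967 bp (lowest 1834, highest 2105 bp), and 17.2% (15.2 to 19.0%) lay within 500 bp. The observed 1941 bp and 16.8% fell inside these ranges, so a closer or a wider placement around stronger peaks was not detectable in this way. With all shifted peaks counted, the median distance was 1478 bp, because peaks that land on a stronger peak then enter at a distance of 0.

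By distance from the edge of the nearest stronger peak, the density of weak midpoints was 260 per Mb within 0.5 kb, where peaks have less room because midpoints cannot touch an edge. It was 403 per Mb from 0.5 to 1 kb, 414 from 1 to 2 kb, 404 from 2 to 3 kb and 416 from 3 to 5 kb. It was 372 per Mb from 5 to 10 kb and 345 beyond 10 kb, beside 375 over all of X outside stronger peaks. Around the stronger peaks that scored 50 or more, the density from 1 to 2 kb was 313 per Mb, against 440 around those that scored from 10 to under 50. It was also lower in the other zones from 0.5 to 5 kb, with 401 against 420 from 3 to 5 kb. In the remaining zones it was higher around the peaks that scored 50 or more, with 288 against 253 within 0.5 kb, 384 against 369 from 5 to 10 kb and 355 against 342 beyond 10 kb. These differences were not tested, and the 207 weak peaks in the zone from 1 to 2 kb of the highest scoring peaks set the precision of that value. The median score of the weak peaks was 4.92 within 0.5 kb and 4.88 beyond 10 kb.

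**Figure D3:**
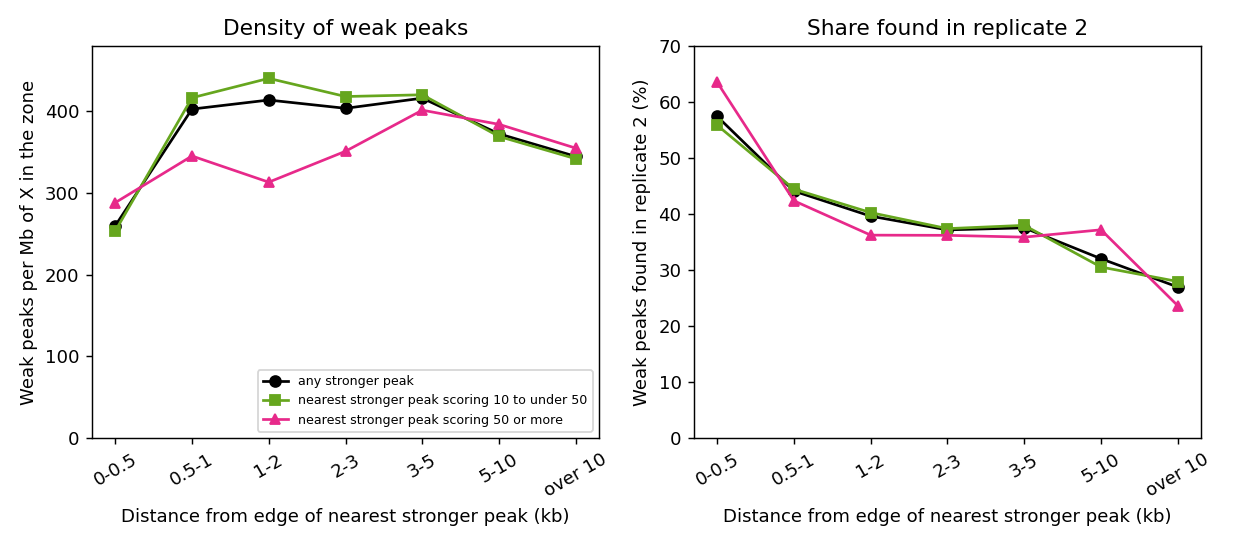
The left plot shows weak peaks per Mb of X (vertical axis) in zones of distance from the edge of the nearest stronger peak (horizontal axis, kb), for all stronger peaks and separately for those scoring 10 to under 50 and 50 or more. The right plot shows the percentage of weak peaks of each zone that were found in replicate 2, which goes from 57.4% within 0.5 kb to 27.0% beyond 10 kb for all stronger peaks.

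The weak peaks farthest from any stronger peak were X 75818 to 76002, at 24058 bp with a score of 7.07, and X 86769 to 87099, at 22374 bp with a score of 2.87. They were followed by X 6184808 to 6185059 at 22317 bp and X 6185647 to 6185823 at 21553 bp, both in the longest run, and X 4088819 to 4088978 at 20326 bp. Only X 6184808 to 6185059 of these 5 was found in a replicate list, in replicate 2 with a score of 62.37. Of all weak peaks, 42.6% were found in either list.

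The last comparison asked how far the separate ChIP samples held the weak peaks, with an overlap of 1 bp or more. In replicate 1, 346 of 5950 weak peaks were found, or 5.82% (exact 95% interval 5.23 to 6.44%), against 18.9% of all X peaks. In replicate 2, 2383 were found, or 40.1% (38.8 to 41.3%), against 59.7% of all X peaks. Both replicates held 192, or 3.23%, against 16.9% of all X peaks, and neither held 3413, or 57.4%, against 38.3% of all X peaks. Of the stronger peaks, 43.5% were found in replicate 1, 96.95% in replicate 2 and 2.38% in neither. The whole-series list starts at a score of 1.30, and the lists of replicates 1 and 2 start at 50.01 and 50.05, on scales not named. A weak peak absent from a replicate list may thus lie below the cut of that list. The share in neither list is therefore not a share without signal in the ChIP samples. How the whole-series list was made is not stated, so it may rest on the same reads as the replicate lists. Scores and widths are tied as well, and these shares are descriptions without a test.

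How the shares compared with circular shifts depended, for replicate 1, on which shifted peaks were counted. With every shifted peak counted, a mean of 26.1% fell on a replicate 2 peak (lowest 24.4%, highest 27.9%) and 7.36% on a replicate 1 peak (6.47 to 8.32%). The observed 40.1% for replicate 2 was thus above every shift, while the observed 5.82% for replicate 1 was below every shift. This comparison counts shifted peaks that land on stronger peaks, where most replicate peaks lie and no weak peak can. With those left out, a choice made after the first result was seen, the shift means were 13.6% for replicate 2 (12.1 to 14.9%) and 1.74% for replicate 1 (1.20 to 2.28%). The observed shares were then above every shift in both replicates, at 2.95 times the shift mean in replicate 2 and 3.34 times in replicate 1. The share in neither list was 57.4%, against a shift mean of 85.6% (84.0 to 87.0%) on the same terms.

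Inside the weak class, the replicate 2 share and the median width were higher in each higher band of score, while the replicate 1 share went up and down. In replicate 2 the share found was 21.6% (36 of 167) at scores below 2, 24.7% from 3 to 4, 36.3% from 5 to 6, 61.4% from 7 to 8 and 76.2% from 9 to 10. Just across the limit, at scores from 10 to 11, it was 85.6%. In replicate 1 it was 5.39% (9 of 167) below 2, 3.09% from 2 to 3, 3.76% from 3 to 4, 5.73% from 5 to 6, 9.47% from 7 to 8, 8.16% from 8 to 9 and 11.3% from 9 to 10, then 17.4% from 10 to 11. In the 3 lowest bands, from the lowest scores up to 4, the replicate 2 share was below the mean of all shifts for the band (24.8%, 24.98% and 25.1%) and above the mean for shifted peaks clear of stronger peaks (12.9%, 13.0% and 13.1%). Some shifts clear of stronger peaks exceeded the observed share in the lowest bands. Below a score of 2 the highest of them was 21.9% in replicate 2, against the observed 21.6%, and from 2 to 3 it was 3.61% in replicate 1, against 3.09%.

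**Figure D4:**
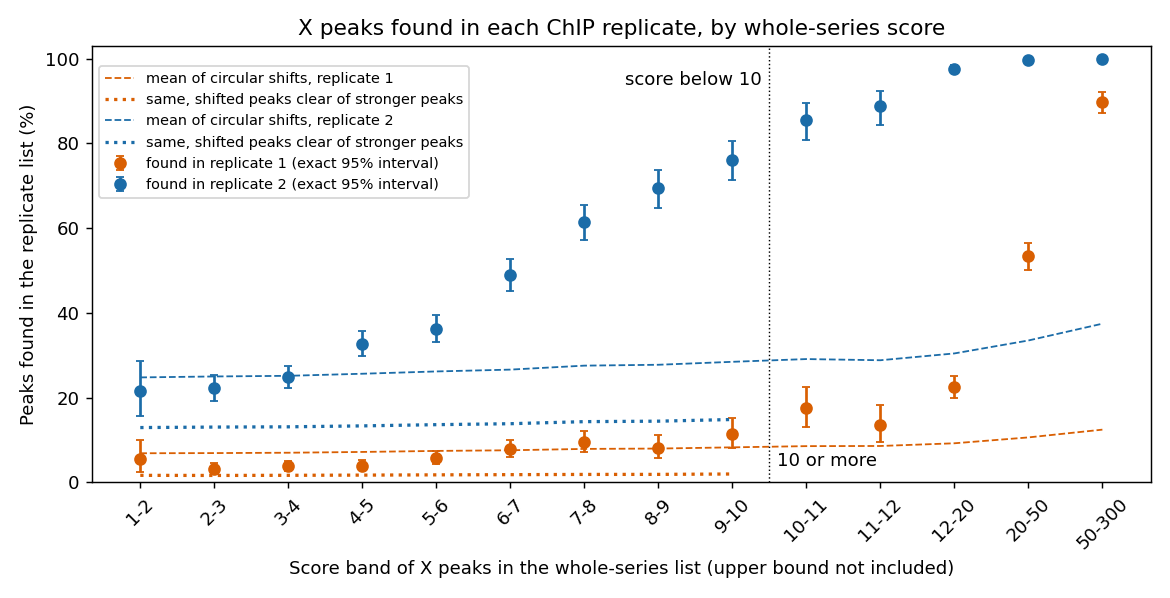
The plot shows the percentage of X peaks found in each replicate list (vertical axis, with exact 95% intervals) by band of the whole-series score (horizontal axis), with dashed lines for the mean of circular shifts and dotted lines for the same without shifted peaks that land on a stronger peak. Replicate 2 climbs from 21.6% in the lowest band to 76.2% just below a score of 10, and replicate 1 stays between 3.09% and 11.3% over the same bands.

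Wider weak peaks were found more often in both lists, and score and width were partly separated by comparing classes of 1 width. Among peaks from 300 to under 400 bp, replicate 2 held 64.1% of 971 weak peaks and 96.6% of 652 stronger peaks, and replicate 1 held 8.03% and 20.9%. Among peaks from 200 to under 300 bp, replicate 2 held 35.0% of 2140 weak and 86.7% of 383 stronger peaks, and replicate 1 held 3.97% and 10.7%. Under 200 bp, where 34.3% of the weak peaks lie, replicate 2 held 17.3% and replicate 1 held 2.20% of them. Of the 33 stronger peaks of that width, replicate 2 held 45.5% and replicate 1 held 15.2%. The latter share was above that of stronger peaks in the next width class. Weak peaks in both lists had a median width of 425 bp and a median score of 6.89. Those in replicate 2 only had 305 bp and 6.13, those in replicate 1 only had 277.5 bp and 5.48, and those in neither had 201 bp and 4.28.

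Small displacements gave different pictures with all weak peaks counted and with those clear of stronger peaks. With all counted, the replicate 2 share went from 40.1% in place to 27.0% and 27.2% at 1 kb to the left and right, while the replicate 1 share went from 5.82% to 7.45% and 7.21%. The rest leaves out displaced peaks that land on a stronger peak, a choice made after seeing the data. Among weak peaks clear of stronger peaks, displacement by 0.2 kb left 38.2% (to the left) and 38.9% (to the right) on a replicate 2 peak, close to the 40.1% in place. At 0.5 kb the values were 19.0% and 19.4%, and at 1 kb they were 16.0% and 15.6%, against the mean of 13.6% over circular shifts. An overlap of 1 bp suffices, and replicate 2 peaks that touch a weak peak had a median width of 496 bp. A move of 0.2 kb can thus keep an overlap through width alone. In replicate 1, the share so counted went from 5.82% in place to 2.70% and 2.81% at 0.5 kb.

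**Figure D5:**
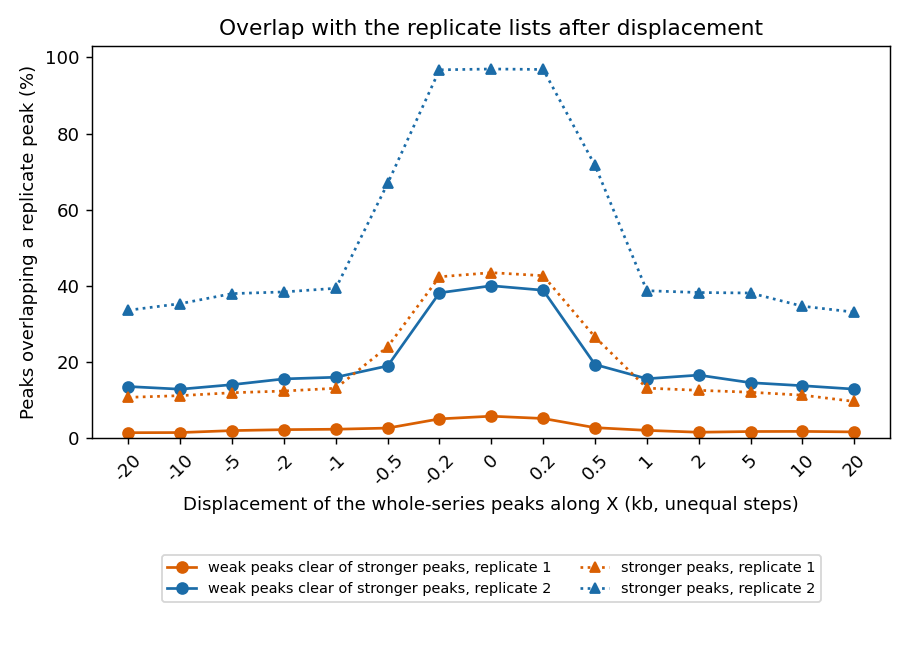
The plot shows the percentage of whole-series X peaks that overlap a replicate peak (vertical axis) after the peaks were displaced along X (horizontal axis, kb in unequal steps, 0 being in place), for weak peaks that stay clear of stronger peaks and for stronger peaks. For weak peaks in replicate 2 the share goes from 40.1% in place to 19.0% and 19.4% at 0.5 kb.

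Most of the replicate peaks behind these overlaps touched no stronger peak. Of the 2383 weak peaks found in replicate 2, 84.8% overlapped a replicate 2 peak that touched no stronger peak, and of the 346 found in replicate 1, 94.5% did so for replicate 1. Seen from the replicates, 1811 of 4743 X peaks of replicate 2 (38.2%) and 300 of 1889 of replicate 1 (15.9%) touched weak peaks and no stronger peak. Their median scores were 84.3 in replicate 2 and 73.9 in replicate 1, near the lowest scores of 50.05 and 50.01 in these lists. Replicate peaks that touched a stronger peak had medians of 325 and 126. A further 318 peaks of replicate 2 touched a weak and a stronger peak at once, with a median width of 1080 bp. Over 1609 pairs of 1 weak peak and 1 replicate 2 peak, the Spearman correlation of scores was 0.37. Over 270 such pairs in replicate 1 it was 0.06. Both are descriptions of a narrowed range, because the whole-series scores were chosen below 10 and the replicate lists start near 50.

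The same overlap by zone differed between the replicates. In replicate 2, the share of weak peaks found was 57.4% within 0.5 kb of a stronger peak, 39.6% from 1 to 2 kb and 27.0% beyond 10 kb. In replicate 1 it was 5.27%, 5.19% and 9.13% in the same zones. The zone beyond 10 kb held only 241 weak peaks, and no intervals were computed for the zone shares. Replicate peaks that touch a stronger peak can reach a weak peak beside it. Their median width was 678.5 bp in replicate 2 and 396 bp in replicate 1. Zone shares without them were not computed. Along X, the replicate 2 share ran from 26.3% in the first bin to 53.6% in the bin X 3000001 to 3500000, with a median of 40.3%. The replicate 1 share ran from 1.67% in the bin X 12500001 to 13000000 to 13.6% in the first bin, with a median of 5.56%. The first bin was therefore the lowest for replicate 2 and the highest for replicate 1.

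Named regions give examples of both lists. Among replicate 2 peaks that touched no stronger peak, the highest scoring that overlapped weak peaks was X 9104784 to 9107685, with a score of 686. It held 3 weak peaks, X 9104874 to 9106144, X 9106319 to 9107192 and X 9107372 to 9107607, which scored 3.81, 8.80 and 9.28, and none of them was found in replicate 1. The next, X 1481695 to 1484244 with a score of 553, held X 1480759 to 1482003 in part and X 1482119 to 1482437, which scored 7.93 and 3.25. The former also overlapped a replicate 1 peak, with a score of 52.12.

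In replicate 1 the highest was X 15482367 to 15484059, with a score of 838. It held X 15482676 to 15483007 and X 15483431 to 15483947, which scored 6.46 and 5.81, and lay 8187 and 8707 bp from the nearest stronger peak. X 11311602 to 11312105 (score 6.29) overlapped a replicate 1 peak with a score of 514.53. X 1553375 to 1554207 and X 1554501 to 1554874 (scores 6.49 and 6.29) shared a replicate 1 peak with a score of 417. None of these 5 was found in replicate 2, whereas 192 of the 346 weak peaks found in replicate 1 were also found in replicate 2. These 5 were picked as extremes, and some share a replicate 1 peak, so they do not stand for the others.

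Some of the lowest scoring weak peaks lay on replicate 2 peaks that scored above 325, the median of replicate 2 peaks touching a stronger peak. X 1516728 to 1517017, which shared the lowest score of 1.30, lay 413 bp from a stronger peak and overlapped peaks in both lists. Their scores were 497 in replicate 2 and 68.59 in replicate 1, where peaks touching a stronger peak had a median of 126. Whether the replicate 2 peak also reached that stronger peak was not determined. X 12343002 to 12343147, which also scored 1.30, was found in neither. Of the following, which scored 1.31, X 3121835 to 3122146 lay at the end of a wide replicate 2 peak with a score of 473, and X 3444855 to 3445084 and X 3841851 to 3842046 were found in neither.

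Autosomal peaks scoring below 10 were found more often in replicate 1 than in replicate 2, the reverse of the weak X peaks. Of 1324 autosomal peaks scoring below 10, replicate 1 held 46.1% (exact 95% interval 43.4 to 48.8%) and replicate 2 held 17.0% (15.0 to 19.1%). By chromosome the replicate 1 share ran from 41.4% on I to 50.5% on IV, against 5.82% on X, and the replicate 2 share from 12.9% on IV to 20.2% on III, against 40.1% on X. X lay outside the range of the 5 autosomes for both replicates. Neither list held 41.6% of the autosomal peaks scoring below 10, against 57.4% of the weak X peaks. Of 439 autosomal peaks scoring 10 or more, replicate 1 held 62.0% and replicate 2 held 73.6%. The higher share in replicate 1 was thus limited to autosomal peaks scoring below 10. The replicate lists differ in the number of peaks on X and autosomes, which moves with these shares, and its part in them was not tested. The ChIP samples are 2, and the labels do not say whether they came from separate cultures.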

How the data were processed

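Peak positions and scores were taken from 3 lists, 1 for the whole series and 1 for each of the 2 ChIP samples. Scores are used as the authors deposited them, and the files do not name their scale. The positions are those the authors deposited, in WormBase WS220 coordinates, per the file headers. The whole-series list names MACS v2 as its source and the replicate lists name MACS, per the file headers. The aligner BWA and the build ce10 are named in the submitters' processing notes. For versions, thresholds, pooling and the use of input, details are not given in the sources used. Read depth is unknown, and no input peak list was used. Score values were compared only within a list; between lists, only their rank order was correlated, and scores of overlapping peaks are given side by side.

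The length of X was the last peak end in any list, 17718897 bp. A last bin shorter than 50% of a bin was joined to its neighbour. The 95% intervals given for shares are exact (Clopper-Pearson) and cover counting error only. A peak that a circular shift carried across the end of X was placed at its start. No p-values were computed, because the score chose the regions and neighbouring peaks are not independent. The interval functions were tested on simulated data. Calculations used Python 3.11.15, numpy 2.4.6, pandas 2.3.3, scipy 1.17.1 and, for plots, matplotlib 3.10.9.

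The regions and the comparisons were chosen with earlier results of these data known. Regions named are the 5 highest and 5 lowest scoring, the 5 widest, the 5 with the highest score in each replicate among replicate peaks without a stronger peak, the 5 farthest from a stronger peak, the longest run, the extreme bins and the 5 peaks just outside the limit, with ties broken by position. A region of the longest run and further extreme bins were named after their values were seen. Alternatives were the score limit, merging of near peaks, bins, arms, distance measures, the overlap rule and the choice of replicate peaks.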

Additional observations from a re-analysis of the deposited data

How the results depend on the processing

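The ratio of arms to centre stayed between 0.94 and 0.99 under score limits of 5 and 15, merging and arms as the outer 25% on each side, against 0.97. With score limits of 5 and 15, weak peaks were 33.2% and 76.7% of X peaks, with median widths of 204 and 251 bp, spacings of 3732 and 1709 bp and distances to a stronger peak of 960 and 2885 bp. Replicate 1 then held 3.74% and 7.26% of them, replicate 2 held 26.7% and 47.6%, and neither held 71.0% and 49.9%. With X peaks closer than 500 bp merged, the values were 59.6%, 258 bp, 2952 bp and 2406 bp, with 37.1% in replicate 2 and 60.1% in neither. The spacing between edges was 1678 bp, and the distance between midpoints to a stronger peak was 2348 bp. The SD over bins of 1000 kb was 8.05% of the mean. With 50% of the weak peak overlapped, the shares were 4.27% in replicate 1, 38.1% in replicate 2 and 59.8% in neither. With 50% of each peak, they were 3.16%, 24.6% and 73.4%. Without replicate peaks over 2 kb, replicate 2 held 37.8% and neither held 59.1%. Without replicate peaks on a stronger peak these were 34.0% and 63.2%. Leaving out 1 replicate, the share in neither list ran from 59.95% (without replicate 1) to 94.2% (without replicate 2), by construction.

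The share in replicate 1 less the shift mean was -1.55 percentage points with all shifted peaks and 4.07 without those on a stronger peak, so its direction depended on this choice, which was made after seeing the data. For replicate 2 it was 13.9 and 26.5 points, and for neither -15.6 and -28.2 points. The median distance less the shift mean was -26.2 bp, and 463 bp with all shifted peaks. No paired analysis was possible because no groups were compared by a test and the input samples have no list here. Unknown depth limits all shares.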
